A study of Mus musculus with 6 samples.

Results

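The m6A writers and erasers were described as 10 genes in cultured cerebellar granule cells (GCs) after KD of the m6A reader YTHDF2. The genes were Mettl3, Mettl14, Wtap, Virma, Rbm15, Rbm15b, Zc3h13 and Cbll1, which encode the m6A methyltransferase complex, and Fto and Alkbh5, which encode demethylases. They were chosen by name, and all 10 were found among the 53421 genes of the deposited count table by matching gene identifiers to the annotation of GRCm38. RNA-seq was performed on 6 libraries of GCs from wildtype C57BL/6 mouse cerebellum at postnatal day 8. In 3 libraries (shYthdf2) the dissociated GCs had received a lentiviral hairpin that targets Ythdf2, and in the other 3 (shCtrl) a control lentivirus. By the study's methods, infected cells were then selected with puromycin. The library names hold 1 hairpin number for all 3 shYthdf2 libraries, so the KD rests on 1 hairpin sequence.

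m6A is a methyl mark on adenosines inside mRNA that is written co-transcriptionally in the nucleus. METTL3 is the catalytic subunit, METTL14 holds the RNA substrate beside it, and WTAP joins this core to the regulatory subunits VIRMA, RBM15, RBM15B, ZC3H13 and the ubiquitin ligase CBLL1 (HAKAI). FTO and ALKBH5 are iron-dependent oxygenases that can remove the mark, and YTH domain proteins such as YTHDF2 bind it in the cytoplasm, where YTHDF2 is known for directing methylated mRNA to decay. The comparison asked whether the transcripts of the enzymes that set and remove the mark differed when this reader was depleted.

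The catalytic residues of the writers and erasers lie in short coding stretches, and these are shown for the 2 core writers and the 2 erasers because the comparison below turns on the balance between these 4 genes. The sequences were read from the GENCODE M21 transcripts of GRCm38 and are written 5′ to 3′ along the transcript, with the codons of the named residues in capitals.
Mettl3: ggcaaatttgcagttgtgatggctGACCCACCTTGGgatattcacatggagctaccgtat
Mettl14: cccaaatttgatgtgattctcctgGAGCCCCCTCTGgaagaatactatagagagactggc
Fto: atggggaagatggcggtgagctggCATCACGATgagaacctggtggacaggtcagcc
Alkbh5: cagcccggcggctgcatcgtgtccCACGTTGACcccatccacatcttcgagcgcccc
In Mettl3 the capitals mark the aspartate, proline, proline and tryptophan of the methyltransferase motif, codons 395 to 398 of 580, in exon 6 of 11 of transcript Mettl3-201 (chr14:52297557-52297616, minus strand). The same place in Mettl14 holds glutamate, proline, proline and leucine, codons 192 to 195 of 456, in exon 7 of 11 of Mettl14-201 (chr3:123374781-123374840, minus strand). METTL14 is known to have no methyltransferase activity of its own. The capitals in Fto and Alkbh5 mark the histidine, any residue and aspartate that hold iron. They are codons 228 to 230 of 502 in exon 3 of 9 of Fto-201 (chr8:91409757-91409813, plus strand) and codons 205 to 207 of 395 in exon 1 of 4 of Alkbh5-201 (chr11:60539011-60539067, plus strand). Mettl3 and Mettl14 shared 0 stretches of 50 bases, as did Fto and Alkbh5, and Rbm15 and Rbm15b, so reads of that length could not be split between the members of these pairs.

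Several features of the libraries bear on every value. By their titles the shYthdf2 libraries would be the wildtype ones, whereas the library names mark them as the KD. The names were followed here, whatever the values, and every direction would be inverted if the titles were correct. Libraries of each group carry the numbers 1, 2 and 4 and held 17246821 to 21546595 counts. Libraries 1 and 4 of a group lay close together, with a chi-square of 3.69 per gene in shYthdf2 and 5.28 in shCtrl, where sampling noise alone gives about 1. Library 2 lay apart from them, with 38.4 to 64.3 per gene. The study's methods call the libraries biological replicates. All 10 granule neuron markers were detected, with summed levels of 7406 to 7570 CPM (counts scaled to library size) in shYthdf2 and 7780 to 8363 CPM in shCtrl, without overlap. Of these markers, 5 had a higher and 5 a lower mean in shYthdf2, with a median log2 fold change of 0.02. Neurod1, Cbln1 and Barhl1 were lower and Rbfox3 was higher in shYthdf2 without overlap. Among all genes tested, 13.4% were lower and 12.6% higher without overlap. None of the 10 markers passed the adjusted threshold in edgeR. At an unadjusted p under 0.05 by edgeR there were 3 of the 10, beside 20.1% of all genes. Markers of other cells also differed between libraries: the 7 genes of the oligodendrocyte lineage summed to 645 to 868 CPM in shYthdf2, to 252 and 241 CPM in shCtrl libraries 1 and 4, and to 827 CPM in shCtrl library 2. The 8 markers of astrocytes and Bergmann glia summed to 604 to 672 CPM in shYthdf2, to 317 and 321 CPM in shCtrl libraries 1 and 4 and to 714 CPM in shCtrl library 2. No marker of these lists was at 0 in all libraries, and the part of these cells in the values below was not tested.

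Ythdf2, the targeted gene, was lower in each library named for its hairpin than in any shCtrl library. It had 501, 402 and 501 normalized counts in shYthdf2 libraries 1, 2 and 4. The shCtrl libraries had 618, 841 and 628. The mean in shYthdf2 was 67.3% of that in shCtrl, the direction that the library names give and not the titles. The log2 fold change was -0.57 (SE 0.16) with an adjusted p of 0.125 by edgeR and of 0.0474 by DESeq2. Normalized counts are counts scaled by TMM factors to a common library size, and fold changes are shYthdf2 relative to shCtrl.

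No writer or eraser passed the adjusted threshold after YTHDF2 KD. Of the 10 genes, 7 had a lower and 3 a higher mean level in shYthdf2, the mean levels were 84.4% to 105% of those in shCtrl, and the adjusted p-values by edgeR ran from 0.230 to 0.923. Among all 17214 genes tested, 104 had an adjusted p-value under 0.05, which is 0.604%. With the library number as a block there were 232, and 0 of the 10. Without the block, 1 of the 10 (Alkbh5) had an unadjusted p-value under 0.05 by edgeR, beside 20.1% of all genes. With the block there were 2 of the 10 (Rbm15b and Alkbh5), beside 5446 of the 17214 genes. Libraries of the groups did not overlap in 2 of the 10, both lower in shYthdf2 (Mettl3 and Alkbh5), beside 13.4% of all genes that were lower and 12.6% that were higher without overlap. The median log2 fold change was -0.07 over the 10 genes and 0.01 over all genes tested, and the median size of the change was 0.08 and 0.25. All genes tested include genes with far fewer counts than the members, and these medians were not matched on level. The 95% intervals of the 10 fold changes lay between 64.7% and 131% of the shCtrl level, so changes of 2-fold in either direction fell outside every interval. These intervals treat the 3 libraries of a group as independent, although libraries 1 and 4 lay close together.

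**Figure D1:**
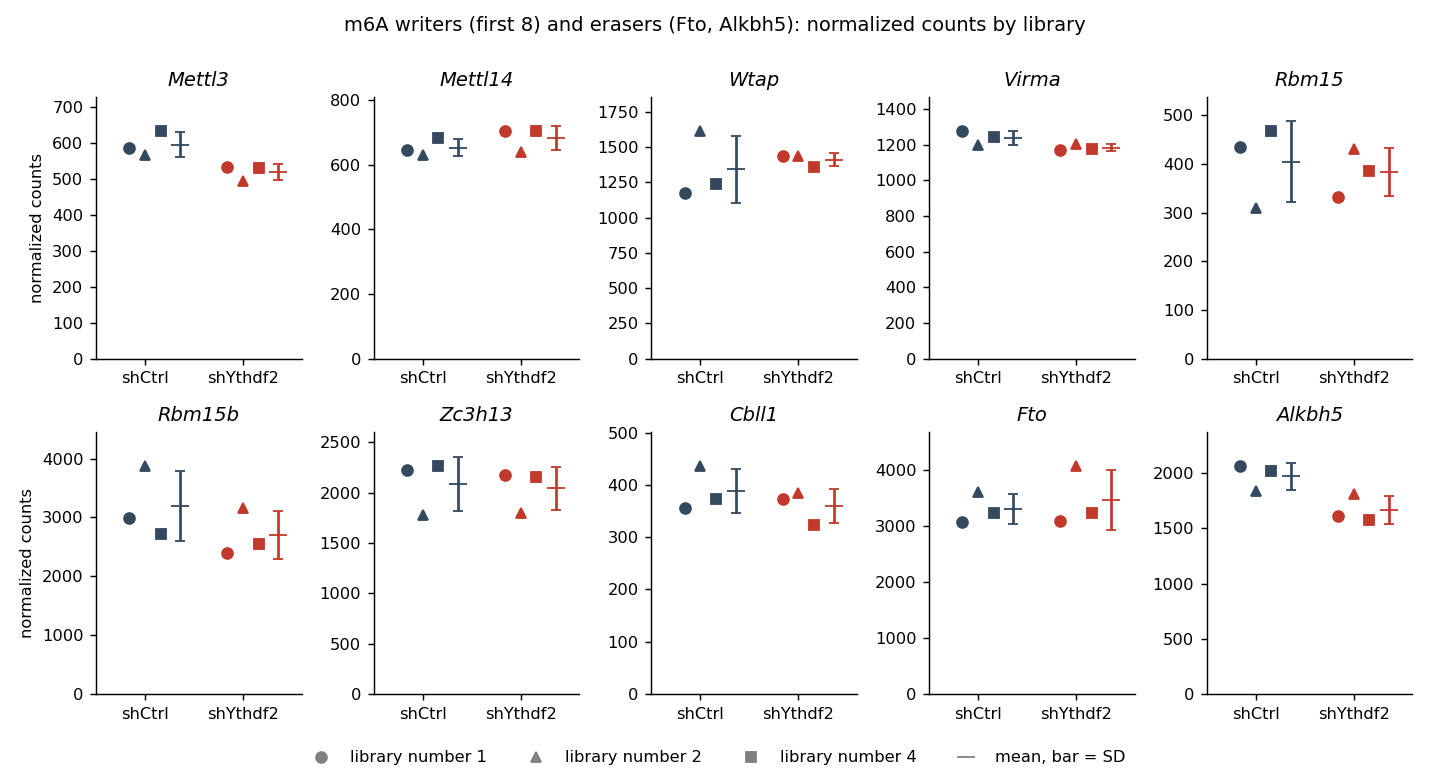
Normalized counts (vertical axis, from 0) of the 8 writers and 2 erasers in the 3 shCtrl and 3 shYthdf2 libraries. Each point is a library, its shape gives the library number, and the bars are the mean and SD. The libraries of the groups are separate for Mettl3 and Alkbh5 and overlap for the other 8 genes, and the triangles of library 2 stand off from the rest for Rbm15b, Zc3h13 and Fto in both groups.

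Within the catalytic core, the mean of Mettl3 lay below its shCtrl level and that of Mettl14 above it. Mettl3 (ENSMUSG00000022160, chromosome 14, 52294841 to 52305128, minus strand) had 535, 494 and 532 normalized counts in shYthdf2 libraries 1, 2 and 4 and 586, 568 and 635 in shCtrl. Every shYthdf2 library lay below every shCtrl library. The log2 fold change was -0.20 (SE 0.11, adjusted p = 0.353), with differences of -0.13, -0.20 and -0.26 between libraries of the same number. Mettl14 (ENSMUSG00000028114, chromosome 3, 123368297 to 123386108, minus strand) had 705, 638 and 703 normalized counts in shYthdf2 and 646, 630 and 682 in shCtrl. Its groups overlapped, and its log2 fold change was 0.06 (SE 0.10, adjusted p = 0.769).

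The ratio of the core subunits to each other varied less within each group than either gene did. On the log2 scale of RPKM (reads scaled for exon length and library depth), Mettl3 over Mettl14 was 0.41, 0.40 and 0.44 in shCtrl libraries 1, 2 and 4 and 0.15, 0.18 and 0.15 in shYthdf2. All 3 shYthdf2 libraries, library 2 included, lay below all 3 shCtrl libraries, and the means differed by -0.26 with SDs of 0.02 and 0.02 (n = 3 a group). A ratio within a library does not depend on how libraries are scaled to each other. Among the 45 pairs of the 10 genes, the groups did not overlap for 7 pairs, and this pair had the widest gap between the groups, 0.22 on the log2 scale. The next was Rbm15b over Fto, with a gap of 0.10. The share of such pairs among all genes tested was not computed. Neither the 7 pairs nor the gap can therefore be called particular to these genes. These ratios are given as a description, without a test.

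Reads of Mettl3 could not be told fully apart from those of its neighbour. The exons of Tox4, a gene on the other strand, overlap those of Mettl3 by 933 bases, 18.4% of the merged exon length of Mettl3. The kits named in the labels and in the study's methods do not mark strand, and the strand setting of the counting was not given in the sources used here. Tox4 had 1543 to 2275 counts per library and a log2 fold change of -0.28 (SE 0.09, adjusted p = 0.145), close to that of Mettl3. Its part in the Mettl3 values was not tested.

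Wtap and Virma, the adaptor and the scaffold of the complex, had levels near those of shCtrl. Wtap (ENSMUSG00000060475, chromosome 17, 12966796 to 12994169, minus strand) had 1439, 1437 and 1355 normalized counts in shYthdf2 and 1172, 1616 and 1236 in shCtrl. The shCtrl library numbered 2 was above all others, and shCtrl libraries 1 and 4 were below all others. The log2 fold change was 0.07 (SE 0.14, adjusted p = 0.802), with differences of 0.30, -0.17 and 0.13 between libraries of the same number. A processed pseudogene, Gm14292, shares 4.54% of the 50-base stretches of Wtap and had 48 to 66 counts. Virma (ENSMUSG00000040720, chromosome 4, 11485958 to 11550684, plus strand) was the steadiest of the 10 genes, with 1167, 1203 and 1177 normalized counts in shYthdf2 and 1277, 1197 and 1240 in shCtrl. Its coefficient of variation was 1.58% in shYthdf2 and 3.23% in shCtrl, and its log2 fold change was -0.07 (SE 0.09, adjusted p = 0.712).

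Rbm15 and Rbm15b encode paralogous RNA-binding subunits that bring the complex to its target sites, and their coefficients of variation within a group were 12.8% to 20.6%. Rbm15 (ENSMUSG00000048109, chromosome 3, 107325421 to 107333673, minus strand) had 332, 430 and 386 normalized counts in shYthdf2 and 436, 310 and 468 in shCtrl. Library 2 was the highest of shYthdf2 and the lowest of shCtrl. The differences between libraries of the same number were -0.39, 0.47 and -0.28, and the log2 fold change was -0.08 (SE 0.19, adjusted p = 0.851). Rbm15b (ENSMUSG00000074102, chromosome 9, 106880918 to 106887428, minus strand) had 2396, 3156 and 2547 normalized counts in shYthdf2 and 2992, 3871 and 2726 in shCtrl. Library 2 was the highest of both groups. Its differences were -0.32, -0.29 and -0.10, all lower in shYthdf2, and its log2 fold change was -0.24 (SE 0.16, adjusted p = 0.452). The fold change moved to -0.08 without shCtrl library 2 and to -0.37 without shYthdf2 library 2. Exons of Manf on the same strand overlap those of Rbm15b by 14 bases, and exons of Dcaf1 on the other strand by 75 bases. Manf had 456 to 785 counts and a log2 fold change of 0.05, and Dcaf1 had 754 to 1120 counts and a log2 fold change of -0.14. With the library number as a block, which removes what same-numbered libraries share, the p of Rbm15b was 0.0207 before and 0.104 after adjustment by edgeR. In that fit 5446 of 17214 genes had an unadjusted p under 0.05. A term for library 2 alone gave an adjusted p of 0.0368 for Rbm15b, the only member past the threshold in that fit, beside 22.1% of all genes.

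Zc3h13 and Cbll1 complete the regulatory part of the complex. Zc3h13, which helps to keep the complex in the nucleus (ENSMUSG00000022000, chromosome 14, 75284373 to 75344426, plus strand), had 2180, 1799 and 2157 normalized counts in shYthdf2 and 2220, 1780 and 2263 in shCtrl. Library 2 was the lowest of both groups by a like amount, and the log2 fold change was -0.03 (SE 0.13, adjusted p = 0.923). Cbll1 (ENSMUSG00000020659, chromosome 12, 31484829 to 31499616, minus strand) had 373, 384 and 323 normalized counts in shYthdf2 and 356, 436 and 374 in shCtrl. Its groups overlapped, with a log2 fold change of -0.11 (SE 0.14, adjusted p = 0.705), which moved to -0.02 without shCtrl library 2. The exons of Gm29542 overlap 17.6% of the exon length of Cbll1 on the other strand, and that gene was listed at 0 counts in every library.

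The erasers differed from each other. Fto (ENSMUSG00000055932, chromosome 8, 91313525 to 91668439, plus strand) had 3092, 4075 and 3238 normalized counts in shYthdf2 and 3078, 3610 and 3243 in shCtrl. Libraries 1 and 4 were almost equal between the groups, with differences of 0.01 and -0.0021, and library 2 was the highest of both groups, with a difference of 0.17. The log2 fold change was 0.07 (SE 0.13, adjusted p = 0.810). Exons of Gm45427 (304 bases) and 4831440D22Rik (144 bases) overlap those of Fto on the other strand, with at most 1 and 5 counts in a library. Alkbh5 (ENSMUSG00000042650, chromosome 11, 60536381 to 60558512, plus strand) had 1609, 1807 and 1576 normalized counts in shYthdf2 and 2063, 1835 and 2019 in shCtrl. The groups did not overlap, but they nearly met in library 2. The differences were -0.36, -0.02 and -0.36 in libraries 1, 2 and 4. The log2 fold change was -0.25 (SE 0.10), with an unadjusted p of 0.0422 and an adjusted p of 0.230 by edgeR. This was the lowest p of the 10 genes. The difference was present in library numbers 1 and 4, in which the glial markers given above were higher in shYthdf2. It was near 0 in library 2, in which the oligodendrocyte lineage markers were 868 CPM in shYthdf2 and 827 CPM in shCtrl. In library 2 the markers of astrocytes and Bergmann glia were lower in shYthdf2 (604 and 714 CPM). Microglial markers were also lower there (15.1 and 27.6 CPM). The part of these cells in the Alkbh5 values was not tested, and in bulk libraries fewer cells of a type and less RNA per cell cannot be told apart.

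**Figure D2:**
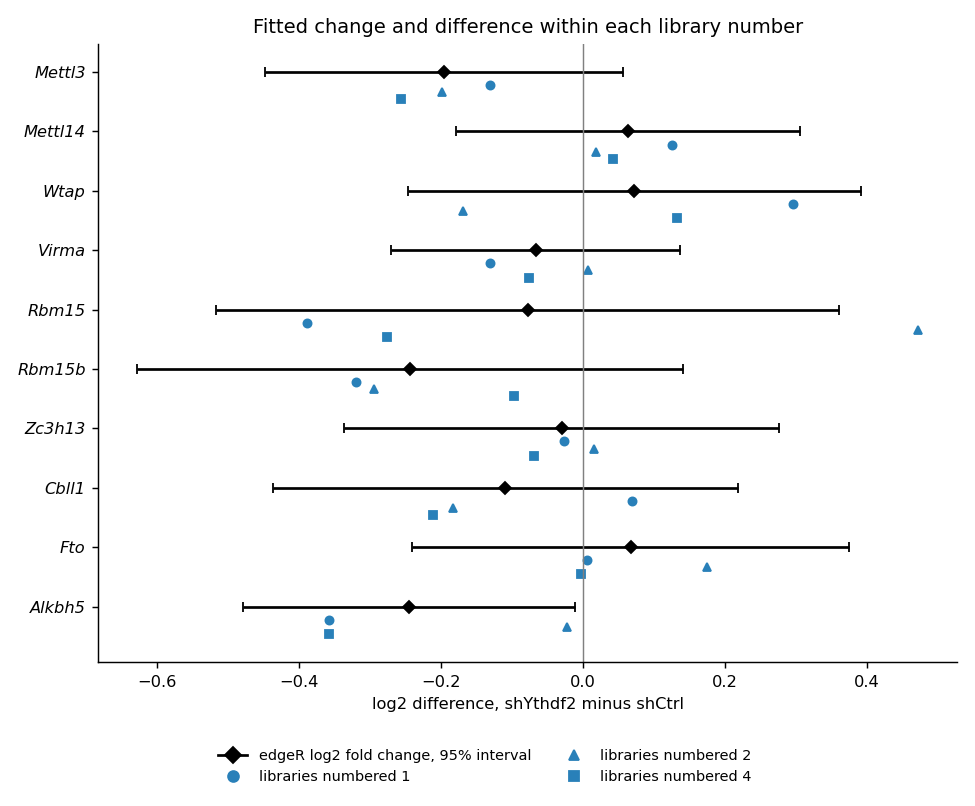
Log2 difference of shYthdf2 minus shCtrl (horizontal axis) for each of the 10 genes. Black diamonds are edgeR log2 fold changes with their 95% intervals, and blue symbols are the differences between libraries of the same number. Every interval but that of Alkbh5 spans 0, and the triangle of library 2 lies on the other side of 0 from libraries 1 and 4 for Wtap, Virma, Rbm15 and Zc3h13.

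In the members, as in all genes tested, library 2 differed from libraries 1 and 4. Its difference between the groups had the opposite sign to both other numbers in 4 of the 10 genes, and 28.3% of all genes tested did so. For Virma and Zc3h13, which are among these 4, the difference in library 2 was near 0 (0.007 and 0.016). Within shCtrl, library 2 lay a median of 0.23 log2 units from the mean of libraries 1 and 4 over the 10 genes, and libraries 1 and 4 lay 0.08 apart. Within shYthdf2 these values were 0.16 and 0.05. For all genes tested they were 0.37 and 0.10 in shCtrl and 0.31 and 0.10 in shYthdf2, larger than the medians of the 10 genes. No match on level was made here either. With library 2 left out of both groups, 5 of the 10 genes passed an adjusted p of 0.05 in edgeR, beside 52.7% of all genes. These were Alkbh5 (log2 fold change -0.36), Rbm15 (-0.33), Rbm15b (-0.22) and Mettl3 (-0.20), all lower, and Wtap (0.21), higher in shYthdf2. That fit has libraries 1 and 4 as its only replicates. With libraries 1 and 4 of a group summed to 1 sample, an alternative chosen after seeing the data, 0 of the 10 genes and 0 of all genes passed in edgeR. At an unadjusted p under 0.05 there were then 0 of the 10 and 937 of 18488 genes.

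Within libraries, the balance of core writers and erasers did not separate the groups. The mean log2 RPKM of Mettl3 and Mettl14 minus that of Fto and Alkbh5 was -1.34, -1.75 and -1.36 in shYthdf2 libraries 1, 2 and 4 and -1.51, -1.58 and -1.43 in shCtrl. The means were -1.48 ± 0.23 and -1.51 ± 0.07 (SD, n = 3), and shYthdf2 held both the highest and the lowest value. Fto over Alkbh5 was -0.18, 0.05 and -0.08 in shYthdf2 and -0.54, -0.15 and -0.44 in shCtrl. The mean of this ratio was higher in shYthdf2 by 0.31, but the highest shCtrl library lay above the lowest shYthdf2 library. Rbm15b over Rbm15 was 3.00 ± 0.08 in shYthdf2 and 3.18 ± 0.58 in shCtrl, where library 2 stood at 3.83.

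**Figure D3:**
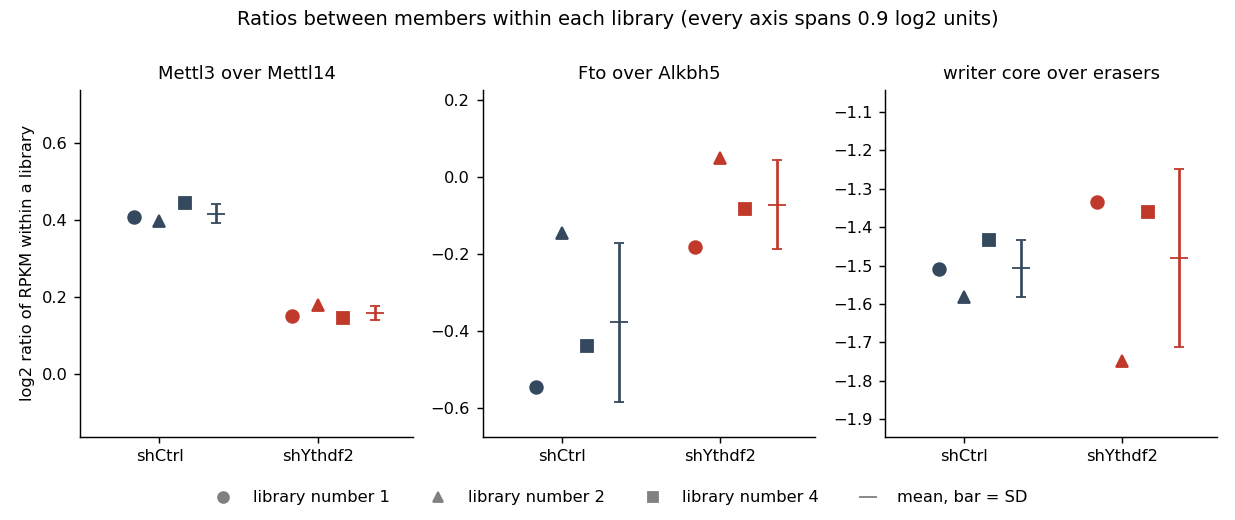
Log2 ratio of RPKM within each library (vertical axes, each spanning the same number of log2 units) for Mettl3 over Mettl14, Fto over Alkbh5, and the core writers over the erasers. Points are libraries, shapes are library numbers, and bars are the mean and SD. Mettl3 over Mettl14 lies at 0.40 to 0.44 in shCtrl and at 0.15 to 0.18 in shYthdf2, while the groups overlap in the other ratios.

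In control GCs the 10 genes spanned a 9-fold range of transcript level. Per kilobase of merged exons, Rbm15b was highest with 25.9 ± 4.85 RPKM (SD, n = 3), followed by Zc3h13 (17.5 ± 2.25 RPKM), Alkbh5 (17.4 ± 1.07 RPKM), Fto (13.4 ± 1.10 RPKM) and Wtap (11.3 ± 2.03 RPKM). Below them came Virma (9.15 ± 0.30 RPKM), Mettl3 (6.19 ± 0.36 RPKM), Cbll1 (5.11 ± 0.55 RPKM), Mettl14 (4.64 ± 0.19 RPKM) and Rbm15 (2.87 ± 0.59 RPKM). The median of the 13726 protein-coding genes tested was 5.74 RPKM, and Rbm15b stood at percentile 85.4 and Rbm15 at percentile 35.9 of these genes. The lower gene of a neighbouring pair was the higher one in some of the 6 libraries for Zc3h13 and Alkbh5 (2 libraries), Alkbh5 and Fto (1 library) and Cbll1 and Mettl14 (2 libraries), so these neighbours were not distinct. The other neighbours kept their order in all 6 libraries. The core subunits Mettl3 and Mettl14 stood at places 7 and 9, and Rbm15b and Rbm15 were at the ends of the order.

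This order depends on the length used. Fto has 7 annotated transcripts with 13031 bases of merged exons, and its longest transcript has 4707 bases. Per kilobase of the longest transcript, Fto was highest with 37.1 RPKM, Wtap moved from place 5 to place 3 with 22.2 RPKM, and Mettl3 stood at 14.6 RPKM in place of 6.19. Cbll1, Mettl14 and Rbm15 held the last 3 places by either length. Counts per gene do not show which transcripts were present.

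**Figure D4:**
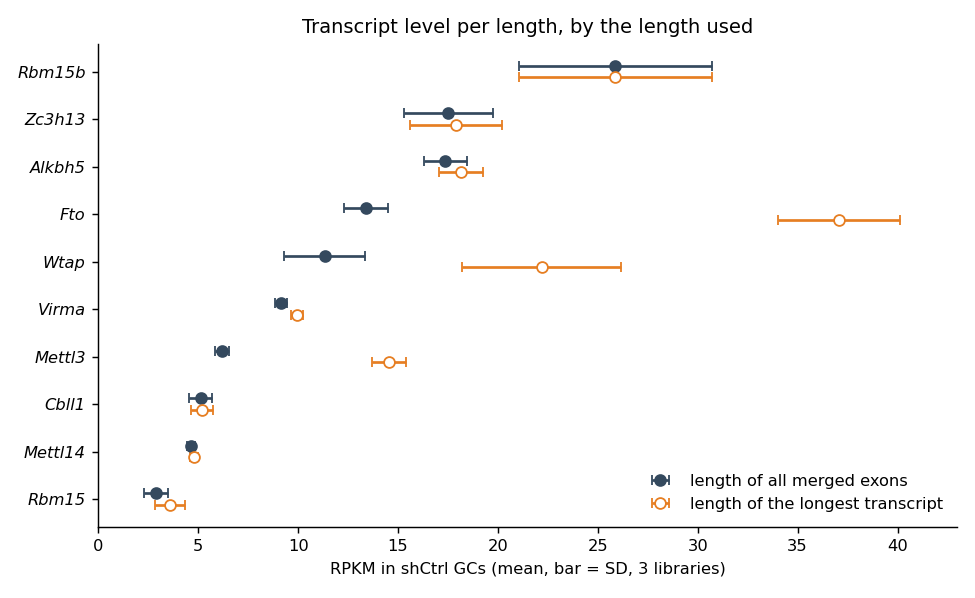
Level of each gene in shCtrl GCs (horizontal axis, RPKM, mean and SD of 3 libraries) with the length of all merged exons (filled) or of the longest transcript (open). Fto, Wtap and Mettl3 shift most between the lengths, and the other 7 genes shift less.

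Across the 6 libraries the members did not vary as 1 block. Of the 45 pairs, 26 had a positive and 19 a negative correlation of log2 normalized counts, with a median r of 0.03. The highest was between Virma and Alkbh5 (r = 0.94), and the lowest were between Mettl14 and Rbm15b (r = -0.93), Zc3h13 and Fto (r = -0.89) and Wtap and Rbm15 (r = -0.81). The libraries share the split between number 2 and the others as well as the groups, so these values describe the 6 libraries and carry no test. Mettl14, Mettl3 and Zc3h13 were lowest in library 2 of both groups, while Rbm15b, Cbll1 and Fto were highest there.

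The genes around the writers and erasers were read from lists of m6A metabolism, and none of the 40 tested genes passed the adjusted threshold in edgeR. At an unadjusted p under 0.05 there were 9 of the 40, beside 20.1% of all genes. The 9 include Ythdf2, the target of the hairpin. S-adenosylmethionine (SAM) is the methyl donor of the writers. The list for its supply and the removal of its product held Mat2a, Mat2b and Ahcy. It also held the Ahcy-like genes Ahcyl1 and Ahcyl2, for which no part in that removal is claimed here. All 5 had lower means in shYthdf2, with a median log2 fold change of -0.39 beside 0.01 for all genes. Mat2b, the regulatory subunit of SAM synthetase, had 930, 1102 and 871 normalized counts in shYthdf2 and 1351, 1443 and 1317 in shCtrl. Its groups did not overlap, with a log2 fold change of -0.50 (SE 0.12, adjusted p = 0.0883). The catalytic subunit gene Mat2a, named after its values were seen, had 434, 514 and 99 normalized counts in shYthdf2 and 488, 773 and 450 in shCtrl. Its low value in shYthdf2 library 4 set it apart from library 1, which was close to library 4 in most genes. In DESeq2, 1 gene of the list passed the adjusted threshold, Mat2b, beside 7.52% of all genes in that fit.

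Among the other AlkB family genes, 2 of 7 had a higher and 5 a lower mean in shYthdf2. Alkbh8, which modifies wobble uridines of tRNA, had 1160, 1125 and 1159 normalized counts in shYthdf2 and 869, 850 and 924 in shCtrl, with a log2 fold change of 0.38 (SE 0.09, adjusted p = 0.0923). Its difference had the same direction in every library number. Of the 10 members, 1 was higher and 3 were lower in every number, beside 27.0% and 26.9% of all genes tested. The other RNA adenosine methyltransferases and partners had 4 of 6 genes higher and 2 lower, and the smallest p was that of Trmt112, the partner of several methyltransferases (log2 fold change -0.33, SE 0.17, adjusted p = 0.335). Of the m6A readers, 12 of 13 were tested, since Igf2bp1 had too few counts, and 8 were higher and 4 lower, with the smallest p at Ythdf2. Of the 10 nuclear factors linked to the writers, 6 were higher and 4 lower, and the smallest p was that of the splicing factor gene Srsf3 (log2 fold change 0.34, SE 0.17, adjusted p = 0.312).

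**Figure D5:**
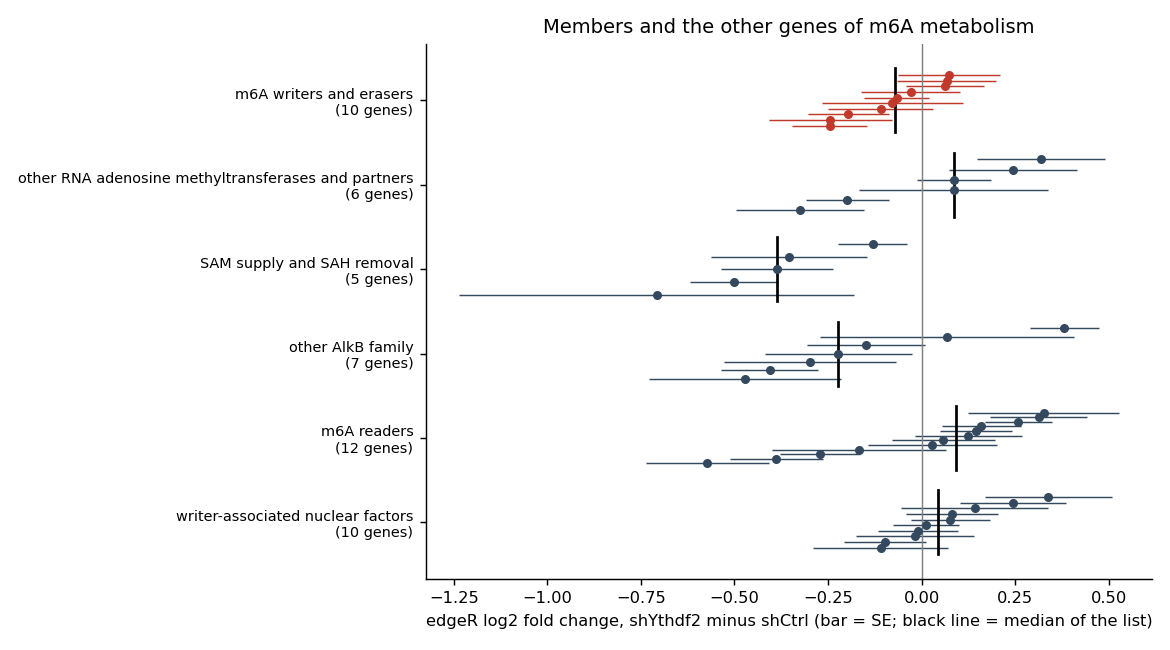
Log2 fold change (horizontal axis, edgeR, bars are SE) of the 10 writers and erasers and of the tested genes of 5 other lists of m6A metabolism. Each point is a gene, and the black lines are the medians. The writers and erasers lie between -0.25 and 0.07. The 5 genes listed under SAM supply and removal, Ahcy-like genes included, all lie below 0 with a median of -0.39.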

How the data were processed

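RNA-seq counts of 6 libraries of cultured GCs were used. By the study's methods, the authors filtered out low quality reads, aligned to GRCm38 with TopHat2 and HISAT, and used HTSeq to obtain a count for each gene. The submitters' processing notes name Bowtie 0.12.2 and mm9 instead. The deposited values were whole-number counts without normalization. Gene identifiers were matched to GENCODE M21 (GRCm38), where 52489 of 53421 had a symbol.

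Genes were kept by filterByExpr (minimum count 10, minimum total count 15), scaled by TMM and tested with the quasi-likelihood test of edgeR 4.0.16 in R 4.3.3, with Benjamini-Hochberg adjustment over 17214 genes and a threshold of 0.05. SEs were taken from the fold change and the F statistic. The study used DESeq, and edgeR stood in for it. A pseudocount of 0.5 was added before log2 values were taken per library. RPKM was computed from TMM-scaled counts. Alternatives were DESeq2 1.42.0, limma-voom (limma 3.58.1), RLE factors, library size alone, other filters, a block or a term for the library number, and libraries left out. The tests were also run on simulated counts, drawn from the gene means, dispersions and library sizes of these data. The draws held no difference between libraries beyond size and group.

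Groups and numbers came from the library names. Deviations from the group means correlated between same-numbered libraries (r = 0.252, 0.360 and 0.322 for numbers 1, 2 and 4). Correlations between different numbers were not computed, so these values cannot show that libraries were paired by number. A fit with the number as a block is given where it changes a call or a count. All other values came from fits without a block, since the study's methods name none. The members and lists were chosen with earlier results of these data known. All 10 members, Ythdf2, genes overlapping a member and the gene with the smallest p of each list were named.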

Additional observations from a re-analysis of the deposited data

How the results depend on the processing

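The count of writers and erasers past an adjusted p of 0.05 was 0 in the fit given above. It moved to 1 with a term for replicate 2, beside 22.1% of all genes. Without replicate 2 in both groups it was 5, beside 52.7% of all genes. It was 0 under the other 14 settings, among them DESeq2, limma-voom and the replicate block. Some of these could give no other count, since no gene at all passed in them. These were the fits without 1 of the libraries numbered 1 or 4 and the fit with libraries 1 and 4 summed. The replicate block changed no call among the members, and the number of all genes past the threshold rose to 232. That number was 1154 in DESeq2, 24 in limma-voom, 639 with every gene that had a count above 0, 3799 with the term for replicate 2, 9186 without replicate 2 in both groups and 0 with libraries 1 and 4 summed. It ran from 0 to 3239 with 1 library left out, and was 3239 without shCtrl replicate 2 and 829 without shYthdf2 replicate 2. It was 0 without each of the other 4 libraries, where 1986 to 2120 genes had an unadjusted p under 0.05 in edgeR.

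Ythdf2 passed the threshold in DESeq2 (-0.59), with the term for replicate 2 (-0.56) and without replicate 2 in both groups (-0.32). The sign of the log2 fold change turned for 4 members near 0. Zc3h13 moved to 0.0045 with library size alone and ran from -0.1324 to 0.054 with 1 library left out. Rbm15 moved to 0.0453 with libraries 1 and 4 summed and ran from -0.2364 to 0.0337, Wtap from -0.0219 to 0.2288, and Fto from -0.0667 to 0.1436. Fto stood at -0.0016 without replicate 2 in both groups. The other 6 members kept their direction under all 16 alternatives, but not their size: Rbm15b ran from -0.37 to -0.08, Cbll1 from -0.18 to -0.02, Virma from -0.11 to -0.03 and Mettl14 from 0.04 to 0.11. The cause of these shifts was not tested. The members had 304 to 4203 counts per library, and the intervals hold both counting error and the spread between libraries.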

Other observations

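Lists of other cell types gave these summed levels. Microglial markers summed to 15.1 to 39.3 CPM in shYthdf2 and 7.01 to 27.6 CPM in shCtrl, and vascular and fibroblast markers to 90.9 to 228 CPM and 79.9 to 187 CPM, with library 2 highest in both groups for the latter. Markers of GABAergic interneurons and Purkinje cells summed to 398 to 505 CPM in shYthdf2 and 325 to 385 CPM in shCtrl, without overlap. Of these 8 genes, 5 had a higher mean in shYthdf2, among them Gad1 (log2 fold change 0.49). The other 3 were lower: Calb1 (-0.45), Pcp2 (-0.22) and Pvalb (-0.18). Markers of progenitors and cycling cells summed to 101 to 119 CPM in shYthdf2 and 97.8 to 123 CPM in shCtrl. No gene of these lists passed the adjusted threshold in edgeR, and all tested genes of the astrocyte, oligodendrocyte, microglial and vascular lists had higher means in shYthdf2.
Without replicate 2 in both groups, 52.7% of all genes passed the adjusted threshold in edgeR. In that fit 4 of the 5 genes listed under SAM supply and removal passed (4 lower). Of the m6A readers 10 of 12 passed (7 higher and 3 lower). Of the nuclear factors linked to the writers 5 of 10 passed (4 higher and 1 lower). Of the other AlkB family genes 2 of 7 passed (1 higher and 1 lower). Of the other adenosine methyltransferases and partners 2 of 6 passed (2 lower). With the term for replicate 2, where 22.1% of all genes passed, these counts were 2 of 5, 5 of 12, 1 of 10, 2 of 7 and 1 of 6.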
